A study of Mus musculus with 6 samples.

Results

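The 10 genes described here encode the transcription factors that hold mouse embryonic stem (ES) cells in the pluripotent state: the core factors Pou5f1, Sox2 and Nanog, and the naive-state factors Klf2, Klf4, Klf5, Esrrb, Tbx3, Tfcp2l1 and Prdm14. They were taken by symbol from a table of 24043 genes, and all 10 were present. RNA-seq was done on 6 libraries of ES cells, 3 labelled wild type (Ctrl) and 3 labelled Q-KO, which are described as cells lacking every G1 cyclin. The medium of both groups held LIF (leukaemia inhibitory factor) together with PD184352, which blocks MEK, and CHIR99021, which blocks GSK3, so neither group represents untreated serum culture. The labels do not say how the cyclin genes were removed, whether the Q-KO libraries come from 1 clone, or whether each replicate was its own culture. The p-values therefore rest on a spread between libraries that may be technical in part. Wild-type replicate 3 carried Y-linked transcripts that the other wild-type libraries lacked. The wild-type spread thus also includes a difference between the cells sampled.

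ES cells keep the ability to form all tissues of the embryo through a small network of transcription factors. Oct4, the product of Pou5f1, and Sox2 bind DNA together at composite sites in many ES cell genes, among them their own genes and Nanog. The naive-state factors connect this core to outside signals: LIF acts through STAT3 on Klf4 and Tfcp2l1, inhibition of GSK3 relieves repression of Esrrb and Tfcp2l1, and inhibition of MEK favours Nanog and Klf2. The published work on these cells asks whether G1 cyclins and their kinases stabilise the Oct4, Sox2 and Nanog proteins. The values here are transcript levels, so they address the RNA side of that question and hold no measure of protein.

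The link between the core factors can be read in the Nanog promoter, shown because it carries the joined Sox2 and Oct4 site. The stretch below holds the 250 bases before the upstream of 2 annotated Nanog starts in RefSeq, build GRCm38.p6, chr6:122707239-122707488, plus strand, and the capitals mark the site.
Nanog: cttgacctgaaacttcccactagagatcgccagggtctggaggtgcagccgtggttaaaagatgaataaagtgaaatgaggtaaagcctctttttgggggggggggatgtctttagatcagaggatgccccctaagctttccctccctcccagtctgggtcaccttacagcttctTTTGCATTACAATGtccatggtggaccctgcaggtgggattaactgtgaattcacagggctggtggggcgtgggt
The site lies at bases -75 to -62 from that start, on the minus strand. It was searched on both strands as CATTGT, any base and ATGCAAA in a row, in the 250 bases before each RefSeq start. It was found in 2 of 32851 windows (0.00609%), which are the windows of the 2 Nanog starts. These 2 windows overlap and hold the same site, which lies at -151 to -138 from the other start. Sites outside the windows or differing by a letter were not counted, so the share does not show how rare such sites are in the genome. RefSeq windows were matched for 7 of the 10 factors, all but Klf5, Tbx3 and Prdm14. The Oct4 part alone, ATGCAAA, which overlaps the composite site, was found in windows of Nanog and Sox2 and in 4.13% of all windows. These matches describe letters and do not show binding.

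The libraries were checked before the factors were compared. Of the G1 cyclins, Ccnd1 (21.1 to 40.6 FPKM in wild-type and 7.73 to 9.74 FPKM in Q-KO libraries), Ccnd3 (53.4 to 141 and 8.29 to 13.2 FPKM) and Ccne2 (6.19 to 7.94 and 2.82 to 3.12 FPKM) fell, with log2 changes of -1.61, -2.76 and -0.97 (limma adjusted p = 0.0124, 0.0101 and 0.0182). Leaving out Q-KO replicate 2 or 3 ended the calls of all 3 (adjusted p 0.0510 to 0.112), as did leaving out wild-type replicate 1 for Ccnd1 and Ccne2 (0.0600 and 0.0652) and Q-KO replicate 1 for Ccne2 (0.0634). Ccne1 did not pass (adjusted p = 0.113), with 65.3 to 87.3 FPKM in the Q-KO and 37.5 to 55.9 FPKM in the wild-type libraries, and Ccnd2 was under 1 FPKM in every library. FPKM counts fragments per gene, scaled by gene length and library size, and it covers exons that a deletion may leave, so it does not show which alleles are gone. The genotype cannot be checked from these values, those of Ccne1 included, so Q-KO below means the libraries labelled Q-KO. Of 8 further ES cell markers, all were tested and 0 passed limma's test (1 had an unadjusted p under 0.05, as did 21.5% of all tested genes), and Dppa5a, the most abundant, was at 3676 to 7781 FPKM, a value that is uncertain because the gene has close copies. Wild-type replicate 3 stood apart: it carried Y-linked transcripts, as the Q-KO libraries did, while all 5 Y-linked genes examined were listed at 0 in wild-type replicates 1 and 2, and its genes on chromosomes 8 and 11 were higher than in those libraries by medians of 0.25 and 0.25 on the log2 scale. The 10 listed fibroblast markers summed to 14.4 to 27.7 FPKM in wild-type and 15.7 to 19.2 FPKM in Q-KO libraries. Most of that sum was Fbln1, at 10.9 to 24.99 and 11.8 to 14.4 FPKM, so it says little of the other markers. The collagen genes Col1a1, Col1a2 and Col3a1 reached 1.86, 1.16 and 1.35 FPKM in Q-KO replicate 1. They were at most 0.168, 0.044 and 0.032 FPKM elsewhere. Postn, Lum and Dcn, under 1 FPKM, were also highest in Q-KO replicate 1. Thy1 was lower in each Q-KO than in each wild-type library (0.819 to 1.36 against 1.42 to 2.75 FPKM). Pdgfrb was higher (0.931 to 1.28 against 0.133 to 0.755 FPKM). These markers are named after their values were seen. In a bulk library fewer cells with a transcript and less transcript per cell cannot be told apart.

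Transcripts of the 10 factors were present at high levels in every library of both groups, and 1 of them, Tbx3, rose in the Q-KO libraries. None fell. Groups were compared with limma on log2(FPKM + 1) over the 11573 genes whose mean reached 1 FPKM, with Benjamini-Hochberg adjustment over all of them and a threshold of 0.05. The rule that named the 10 genes used no values, although they were chosen with results of these data known. All 10 passed the filter, with a lowest value of 19.97 FPKM in any library, so none entered through 1 group alone. The share of all tested genes past the threshold was 4.06% in either direction, with 3.04% higher and 1.02% lower. Against that background 1 call among 10 genes does not stand out. Without adjustment 21.5% of all tested genes had a p under 0.05, 14.8% higher and 6.70% lower, and so did 1 of the 10 factors. The median log2 change was 0.15 for the factors and 0.07 for all tested genes, and 8 of the 10 lay above 0. That count depends on the scaling: median-of-ratios scaling moved the median of all tested genes by -0.12, to -0.04, and left 6 factors above 0.

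**Figure D1:**
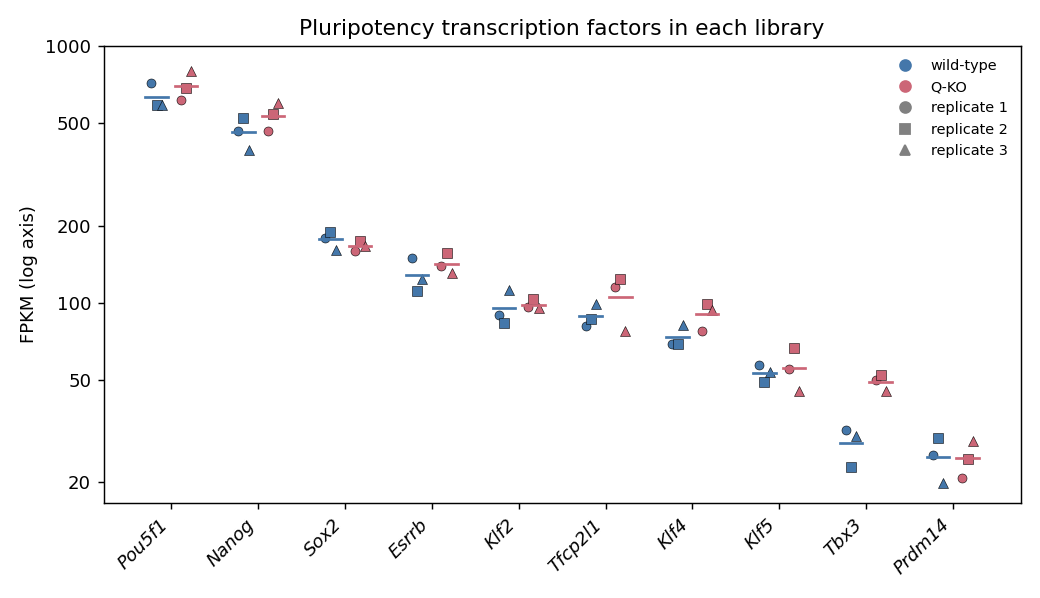
FPKM (log axis) of the 10 pluripotency transcription factors in each of the 3 wild-type and 3 Q-KO libraries, ordered by their wild-type mean. Points are libraries, with a shape for each replicate, and lines are group means; the groups separate only for Tbx3, at 23.0 to 31.9 FPKM in wild-type and 45.4 to 52.5 FPKM in Q-KO libraries.

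Pou5f1 encodes Oct4, the POU factor without which the inner cell mass turns to trophectoderm. The wild-type libraries gave 718, 589 and 590 FPKM and the Q-KO libraries 614, 684 and 797 FPKM, each in the order of replicates 1 to 3. The highest library was a Q-KO library, but wild-type replicate 1 was above Q-KO replicates 1 and 2, and the groups overlapped. The means were 632 ± 74.1 and 698 ± 92.1 FPKM (SD, n = 3 in each group, here and for later means). The log2 change was 0.14 (SE 0.16, limma adjusted p = 0.664), with a 95% interval from -0.24 to 0.52, which spans Q-KO levels from 0.850 to 1.43 times the wild-type level.

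Sox2 encodes the HMG-box partner of Oct4. It was at 179, 189 and 161 FPKM in the wild-type and 159, 174 and 167 FPKM in the Q-KO libraries, replicates 1 to 3 in order. These values lay within a ratio of 1.19 from the lowest to the highest, the smallest among the 10 factors. The log2 change was -0.08 (SE 0.13, adjusted p = 0.753), with a 95% interval from -0.37 to 0.21, or from 0.774 to 1.16 times the wild-type level.

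Nanog, a homeobox factor that makes self-renewal less dependent on LIF, was at 466, 524 and 392 FPKM in wild-type and 466, 544 and 597 FPKM in Q-KO libraries. Wild-type replicate 3 was the lowest library, and the other libraries of the 2 groups overlapped. The means were 461 ± 65.8 and 536 ± 66.2 FPKM, and the log2 change was 0.22 (SE 0.17, adjusted p = 0.486; 95% interval -0.17 to 0.60). In this fit a loss of transcript to below 0.774 times the wild-type level lay outside the intervals of all 3 core factors. Rises of up to 1.43, 1.16 and 1.52 times for Pou5f1, Sox2 and Nanog lay within them. These bounds depend on the scaling. With median-of-ratios scaling the Sox2 interval ran from -0.49 to 0.07 on the log2 scale, with a lower end beyond the -0.37 of this fit. Nanog has processed pseudogenes, so reads shared with them could have been split.

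Ratios within a library do not depend on its scaling. Sox2 stood at 24.99%, 32.1% and 27.3% of the Pou5f1 value in the 3 wild-type libraries, against 25.9%, 25.4% and 21.0% in the Q-KO group. Nanog stood at 64.9%, 88.8% and 66.5% of the Pou5f1 value in the wild-type and 75.8%, 79.6% and 74.97% in the Q-KO libraries. Both ratios overlapped between the groups, and the Nanog ratio had an SD of 13.4 percentage points over the wild-type and 2.44 over the Q-KO libraries.

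Klf2, Klf4 and Klf5 are zinc finger factors of the Krüppel-like family that bind GC-rich sites and can stand in for each other in ES cells. Klf4, a reprogramming factor that responds to LIF, was at 69.0, 69.0 and 82.1 FPKM in wild-type and 77.4, 98.7 and 94.1 FPKM in Q-KO libraries. Only Q-KO replicate 1 lay inside the wild-type range. Its log2 change of 0.29 was the second in size among the 10 and did not pass (SE 0.15, adjusted p = 0.293; 95% interval -0.04 to 0.62).

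Klf2, whose product is stabilised when MEK is inhibited, was at 89.8, 83.5 and 112 FPKM in wild-type and 96.3, 104 and 95.4 FPKM in Q-KO libraries. The highest value was that of wild-type replicate 3, in which Klf2 exceeded the other wild-type libraries by 0.37 on the log2 scale. Klf2 is on chromosome 8, where genes of that library were higher by a median of 0.25. The part of that excess in the comparison was not tested beyond leaving the library out, which gave a log2 change of 0.18 (adjusted p = 0.515) in place of 0.06 (SE 0.14, adjusted p = 0.854).

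Klf5, which is also needed in trophectoderm, was at 57.3, 49.1 and 53.9 FPKM in wild-type and 55.2, 66.8 and 45.5 FPKM in Q-KO libraries. The Q-KO libraries held both its highest and its lowest value. Its log2 change was 0.05 (SE 0.16, adjusted p = 0.897). The sign of the change of Klf2 and Klf5 was negative under median-of-ratios scaling (-0.07 and -0.08), so no direction is given for either.

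Esrrb, an orphan nuclear receptor and Nanog target, was at 149, 111 and 124 FPKM in wild-type and 139, 157 and 131 FPKM in Q-KO libraries. The groups overlapped, and the log2 change of 0.15 did not pass (SE 0.15, adjusted p = 0.597). Tfcp2l1, a grainyhead-family factor downstream of LIF and of GSK3 inhibition, was at 81.5, 86.6 and 98.9 FPKM in wild-type and 116, 124 and 77.8 FPKM in Q-KO libraries. Q-KO replicates 1 and 2 were above all wild-type libraries and Q-KO replicate 3 was below them all, so Tfcp2l1 had the widest Q-KO spread of the 10, a coefficient of variation (CV, the SD as a share of the mean) of 23.2%. Its log2 change was 0.22 (SE 0.19, adjusted p = 0.543), and 0.43 without Q-KO replicate 3 (adjusted p = 0.162).

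Prdm14, a PR-domain protein that represses DNA methyltransferase and FGF receptor genes in naive cells, was the factor with the lowest mean, at 25.5, 29.9 and 19.97 FPKM in wild-type and 20.9, 24.7 and 28.9 FPKM in Q-KO libraries. Its log2 change was -0.01 (SE 0.19, adjusted p = 0.981; 95% interval -0.44 to 0.41).

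Tbx3, a T-box factor of the naive network that also acts in extra-embryonic endoderm, was at 31.9, 23.0 and 30.4 FPKM in wild-type and 50.05, 52.5 and 45.4 FPKM in Q-KO libraries. Each Q-KO library was above each wild-type library, which held for 1 of the 10 factors and, of all tested genes, for 18.2% in that direction, 9.44% in the other and 27.7% in either. The means were 28.4 ± 4.77 and 49.3 ± 3.60 FPKM, a log2 rise of 0.79 (SE 0.16, adjusted p = 0.0346; 95% interval 0.43 to 1.14), or 1.72 times on the FPKM + 1 scale. As a share of the Pou5f1 value in the same library, Tbx3 stood at 4.44%, 3.90% and 5.15% in wild-type and 8.15%, 7.68% and 5.70% in Q-KO libraries, which did not overlap either. As a share of Nanog the groups overlapped (4.39% to 7.74% and 7.60% to 10.7%).

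The size of the Tbx3 difference changed little with the processing and its call changed often. The log2 change was 0.64 to 0.87 in the 6 fits that each left out 1 library, and the call was lost in 5 of them: without wild-type replicate 1 (adjusted p = 0.0754) or 2 (0.0520) and without Q-KO replicate 1 (0.106), 2 (0.189) or 3 (0.0839). Against wild-type replicate 3 alone, the wild-type library that shares Y-linked transcripts with the Q-KO group, it was 0.68 (adjusted p = 0.110), a fit in which that arm is 1 library, assumed to vary like the others, from which the spread comes. Without Q-KO replicate 1, the library with collagen transcripts, it was 0.77.

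**Figure D2:**
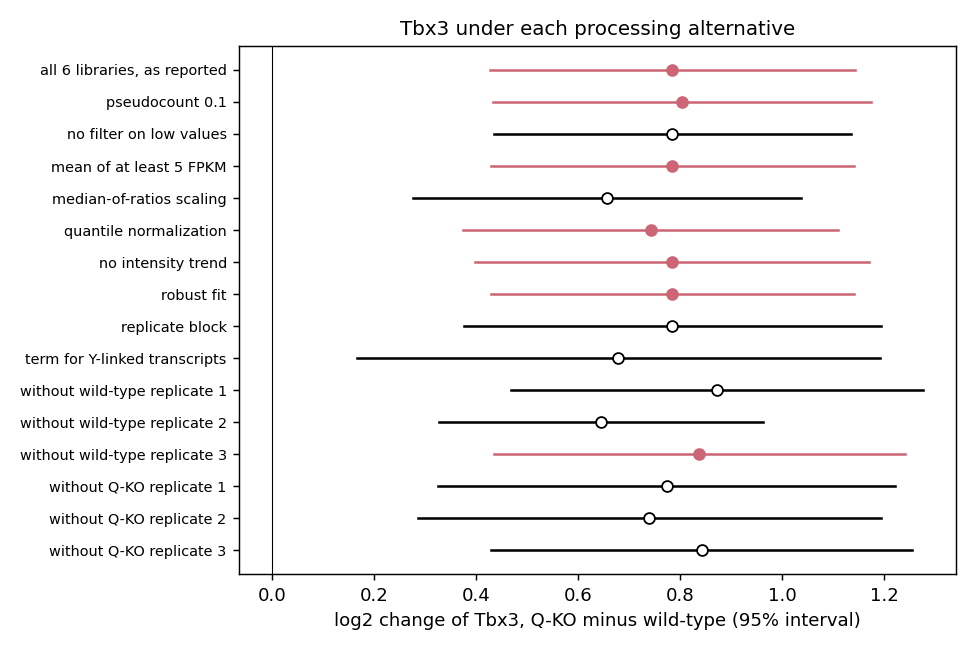
Log2 change of Tbx3, Q-KO minus wild-type, with its 95% interval under each setting. Filled points passed an adjusted p of 0.05 and open points did not; every estimate lay between 0.64 and 0.87 and every interval lay above 0, with 1 wild-type library in the comparison of the Y-linked term.

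A pair of annotated transcripts that overlap or abut factor genes were named after their values were seen. Sox2ot, the long non-coding RNA in whose span Sox2 lies on the same strand, was at 0.116, 0.198 and 0.0915 FPKM in wild-type and 0.489, 0.570 and 0.404 FPKM in Q-KO libraries. Tbx3os2, on the strand opposite Tbx3, was at 0.291, 0.533 and 0.371 FPKM in wild-type and 0.712, 0.721 and 0.855 FPKM in Q-KO libraries. Both had separate ranges with Q-KO higher, as did 18.2% of all tested genes. Both were under the filter and untested, so that share is of genes at higher levels, and none was computed for genes of their level. Since strand-specific counting was not stated, their reads and those of the factor genes may not be fully told apart. Their levels were at most 0.570 and 0.855 FPKM, against at least 159 FPKM for Sox2 and 23.0 FPKM for Tbx3.

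**Figure D3:**
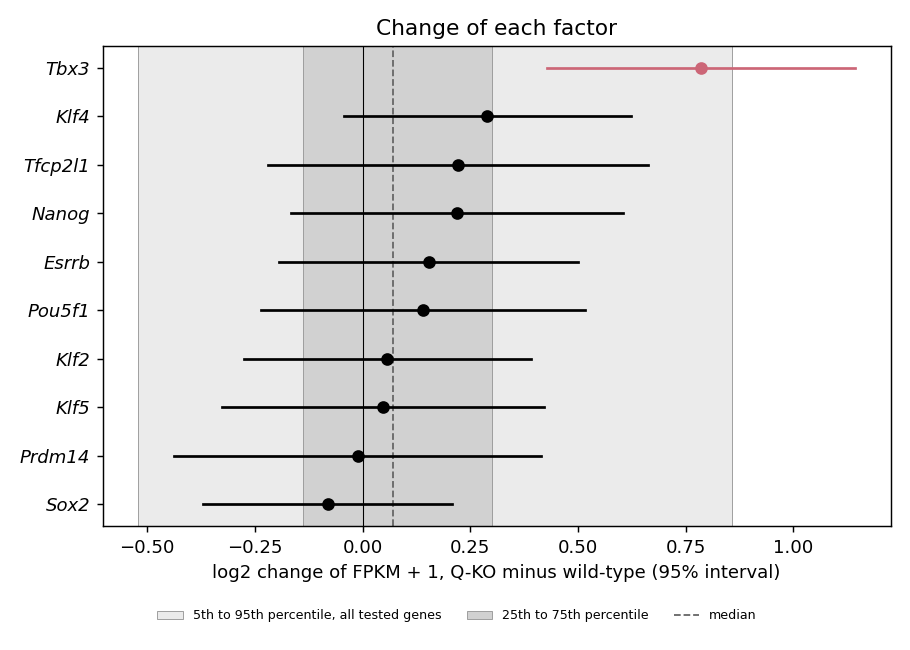
Log2 change of FPKM + 1, Q-KO minus wild-type, for each factor, with its 95% interval as a line. Shaded bands show the 5th to 95th and the 25th to 75th percentile of all 11573 tested genes and the dashed line their median of 0.07; Tbx3, in red, passed the threshold.

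FPKM is per length, so levels can be set against each other within a library group. In the wild-type group the order of mean levels was Pou5f1, Nanog, Sox2, Esrrb, Klf2, Tfcp2l1, Klf4, Klf5, Tbx3 and Prdm14. Pou5f1, Nanog and Sox2 were each separate from the next gene, as were Klf4 from Klf5 and Klf5 from Tbx3. Esrrb, Klf2, Tfcp2l1 and Klf4 each overlapped the next of them, and Tbx3 overlapped Prdm14. In the Q-KO group Tfcp2l1 and Klf2 changed places with overlapping ranges. There Tbx3 overlapped Klf5 (45.5 to 66.8 FPKM) and was separate from Prdm14 (20.9 to 28.9 FPKM). By group mean Pou5f1 was the 124th highest of all 24043 genes in wild-type and the 120th in Q-KO libraries, Nanog the 167th and the 157th, and Tbx3 the 2759th and the 1690th.

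The factors varied about as much between replicates as other genes of their level. Their median CV was 13.01% over the wild-type and 12.4% over the Q-KO libraries, against 12.9% and 11.8% for the 3744 tested genes whose mean reached 20 FPKM. The highest wild-type CV was that of Prdm14, at 19.7%. Summed over the 10 factors, the libraries held 1867, 1754 and 1664 FPKM in the wild-type and 1793, 2028 and 2079 FPKM in the Q-KO group. Q-KO replicate 2 had the highest value of the 6 libraries for 5 of the 10 factors.

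For each factor the tested gene with the most similar profile over the 6 libraries was found by Pearson's r of log2(FPKM + 1), as a description. The highest r for a factor ranged from 0.985 to 0.998 and was each time the largest of 11572 values over libraries that share depth and composition. The nearest genes were Gpank1 for Pou5f1 (r = 0.986), Pgm1 for Sox2 (0.988), Tnfsf13 for Nanog (0.995), Kirrel for Klf2 (0.985), Slc12a9 for Klf4 (0.990), Eif2ak3 for Klf5 (0.989), Zfp574 for Esrrb (0.991), Kbtbd4 for Tbx3 (0.998), Csnk1g1 for Tfcp2l1 (0.996) and Bphl for Prdm14 (0.991). No factor was nearest to another factor. Among the factors themselves the highest r was that of Nanog and Prdm14 (0.80), which were both lowest in wild-type replicate 3, and Pou5f1 with Nanog had 0.64.

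The remainder of the network was read from 9 lists chosen with results of these data known and the G1 cyclins above. None of 30 partner factors, which act with the core or beside it, passed limma's test. Without adjustment 4 had a p under 0.05, of which 2 were higher and 2 lower, beside 21.5% of all tested genes, and the list's median was -0.05. The most abundant was Zfp57, a zinc finger protein that protects imprinted methylation, at 202, 166 and 150 FPKM in wild-type and 218, 222 and 242 FPKM in the Q-KO group, a log2 change of 0.40 that did not pass (adjusted p = 0.166). Of 18 tested targets of Oct4, Sox2 and Nanog 0 passed (without adjustment 5 had a p under 0.05, of which 2 were higher and 3 lower, beside 14.8% higher and 6.70% lower of all tested genes), with a median of 0.02. Lefty1 and Lefty2, which encode inhibitors of Nodal signalling, had separate ranges with Q-KO lower, as did 9.44% of all tested genes. They did not pass. Lefty1 was at 19.03, 11.99 and 57.5 FPKM in wild-type and 7.63, 1.91 and 3.77 FPKM in Q-KO libraries, a log2 change of -2.33 (adjusted p = 0.0640). Lefty2 was at 52.6, 31.0 and 187 FPKM in wild-type and 22.7, 4.78 and 10.6 FPKM in Q-KO libraries, a log2 change of -2.55 (adjusted p = 0.0834). Both were highest in wild-type replicate 3. Tcl1, a co-activator of the kinase Akt, was at 89.1, 78.0 and 77.7 FPKM in wild-type and 35.9, 36.6 and 61.5 FPKM in the Q-KO group, a log2 change of -0.90 (adjusted p = 0.0596). The ranges of Spp1, which encodes osteopontin, were separate in the other direction, as for 18.2% of all tested genes. Its log2 change was 0.75 (adjusted p = 0.140). Fgf4, the growth factor gene whose enhancer carries a well-studied Sox2 and Oct4 site, was at 94.3, 94.3 and 85.5 FPKM in wild-type and 86.3, 106 and 118 FPKM in the Q-KO group, a log2 change of 0.17 (adjusted p = 0.555). These 5 targets are named after their values were seen. The count of targets past the threshold was 0 to 2 over the alternatives other than the Y-linked term: 2 with the replicate block, 1 with either other scaling, with a robust fit and without wild-type replicate 2, wild-type replicate 3 or Q-KO replicate 3, and 0 in the rest. The count of partner factors was 1 without wild-type replicate 3 and 0 in the rest. With the Y-linked term, which sets the Q-KO libraries against wild-type replicate 3 alone and takes the spread from the other 5 libraries, 6 partner factors and 4 targets passed. Those counts rest on 1 library that stood apart.

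Signals that feed the factors gave 1 call among 21 tested genes of the LIF, WNT and ERK pathways, beside 4.06% of all tested genes. Without adjustment 7 had a p under 0.05, of which 6 were higher and 1 lower, beside 14.8% and 6.70% of all tested genes. The list's median was 0.06. Etv4, an ETS factor gene induced by ERK signalling, rose from 5.12, 4.63 and 3.75 FPKM to 15.5, 14.2 and 13.3 FPKM, a log2 change of 1.48 (SE 0.15, adjusted p = 0.00464), and that call was lost only without Q-KO replicate 2 among the fits that left out 1 library (adjusted p = 0.0564). Stat3, which carries the LIF signal, was at 18.7, 16.4 and 25.8 FPKM in wild-type and 30.7, 34.3 and 25.4 FPKM in the Q-KO group, a log2 change of 0.56 (adjusted p = 0.149). Tcf7l1, the repressor of Esrrb and Tfcp2l1, was at 26.2, 17.6 and 19.6 FPKM and 26.7, 31.0 and 25.2 FPKM (0.38, adjusted p = 0.247). Among other ERK pathway genes of the list, Dusp6 (0.38, adjusted p = 0.365) and Spry2 (0.68, adjusted p = 0.128) did not pass, and Spry4 was under 1 FPKM. Egr1 reached 14.8 FPKM in Q-KO replicate 1 against at most 0.222 FPKM elsewhere and did not pass (adjusted p = 0.411). Etv5, of the partner factors, went the other way and did not pass (-0.34, adjusted p = 0.329). Etv4 aside, the genes of this paragraph are named after their values were seen.

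Of 10 other tested genes of the KLF family 1 fell and 0 rose (median -0.07), beside 1.02% and 3.04% of all tested genes. Without adjustment 1 was higher and 1 lower at a p under 0.05, beside 14.8% and 6.70% of all tested genes. Klf6 fell from 9.31, 8.89 and 12.6 FPKM to 4.13, 3.30 and 2.84 FPKM, a log2 change of -1.34 (SE 0.19, adjusted p = 0.0121). Its call was lost without wild-type replicate 1 (adjusted p = 0.0507) and without Q-KO replicate 2 (0.0974) or 3 (0.0574). Among 22 tested paralogs of the non-KLF factors 2 higher and 1 lower gene were past the threshold (median 0.09), beside the same shares. Without adjustment 4 were higher and 3 lower at a p under 0.05, beside 14.8% and 6.70% of all tested genes. The higher ones include Tbx2 and Sox4, which met the filter only through their Q-KO values. Their means were 0.239 and 0.918 FPKM in wild-type and 1.95 and 2.13 FPKM in Q-KO libraries. These counts are therefore not free of the filter. Pou2f3, a POU factor of tuft cells, fell by 1.65 on the log2 scale (adjusted p = 0.0172). The T-box gene Eomes rose by 1.62 on the log2 scale, from 1.23, 1.06 and 1.17 FPKM to 5.82, 5.85 and 5.25 FPKM (adjusted p = 0.00398), and held its call in all 6 fits that left out 1 library. Tbx2, also a T-box gene, was at 0.126, 0.389 and 0.202 FPKM in wild-type and 1.26, 2.35 and 2.23 FPKM in Q-KO libraries. It was past the threshold too, but it met the filter only through its Q-KO values, so its values are given as a description. Pou2f3 lost its call without wild-type replicate 1 (adjusted p = 0.0750) and without Q-KO replicate 2 (0.110) or 3 (0.0827).

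Proteins that modify or degrade the factor proteins bear most closely on the stability question. Of 30 tested genes 1 fell and 0 rose (median 0.07), beside 1.02% and 3.04% of all tested genes. Without adjustment 2 were higher and 1 lower at a p under 0.05, beside 14.8% and 6.70% of all tested genes. Aurkb, a mitotic kinase that can phosphorylate Oct4, went from 36.6, 37.4 and 31.8 FPKM to 19.6, 20.6 and 18.4 FPKM, a log2 change of -0.82 (SE 0.13, adjusted p = 0.0155). The call was lost without wild-type replicate 1 (adjusted p = 0.0702) and without any of the 3 Q-KO replicates (0.0573, 0.105 and 0.0624 for replicates 1, 2 and 3). The ubiquitin ligase gene Wwp2, whose product acts on Oct4, was at 20.3, 18.5 and 24.6 FPKM in wild-type and 21.0, 20.1 and 20.6 FPKM in the Q-KO group, a log2 change of -0.03 (adjusted p = 0.930). Fbxw8, whose product acts on Nanog, was at 11.5, 9.16 and 9.95 FPKM and 9.26, 11.1 and 11.5 FPKM (0.05, adjusted p = 0.885). The methyltransferase gene Setd7, whose product acts on Sox2, was at 0.976, 2.17 and 0.521 FPKM and 3.47, 4.22 and 2.85 FPKM (1.08, adjusted p = 0.0760). The cyclin partner kinases Cdk2 (0.26, adjusted p = 0.261), Cdk4 (0.21, adjusted p = 0.465) and Cdk6 (0.49, adjusted p = 0.250) did not pass. These 6 genes, Aurkb aside, are named after their values were seen.

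Lists of genes that mark exit from the naive state gave 2 calls among 22 tested genes, beside 4.06% of all tested genes. Of 11 tested trophectoderm genes 2 rose and 0 fell (without adjustment 5 had a p under 0.05, all higher, beside 14.8% of all tested genes; median 0.23): Eomes, above, and the AP-2 factor gene Tfap2c, which went from 17.2 ± 1.67 to 34.2 ± 5.23 FPKM (log2 change 0.94, adjusted p = 0.0194). The call of Tfap2c was lost without wild-type replicate 1 (adjusted p = 0.0631) and without Q-KO replicate 2 (0.130) or 3 (0.0783). The defining trophectoderm genes Cdx2, Elf5, Gata3 and Hand1 were under 1 FPKM in every library. Cdx2 was at 0.0178 to 0.0489 FPKM in the wild-type and 0.393 to 0.805 FPKM in the Q-KO libraries. Gata3 was at 0.00764 to 0.204 and 0.242 to 0.321 FPKM, also separate, and the ranges of Elf5 and Hand1 overlapped. Of 3 tested primitive endoderm genes 0 passed limma's test (1 had an unadjusted p under 0.05), with Sparc the most abundant (log2 change 0.21, adjusted p = 0.666), and of 8 formative and primed epiblast genes 0 passed (1 had an unadjusted p under 0.05), with Nodal the most abundant (0.43, adjusted p = 0.227). Gata6, Sox17 and Fgf5 were under 1 FPKM in every library. Some untested genes of these lists had separate ranges with Q-KO higher. The primitive endoderm gene Dab2 was at 0.0534 to 0.123 FPKM in wild-type and 0.294 to 1.24 FPKM in Q-KO libraries. Sox3, of the epiblast list, was at 0.0371 to 0.691 and 1.09 to 1.90 FPKM. The other untested genes of both lists overlapped. No share was computed for untested genes, and these genes are named after their values were seen.

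**Figure D4:**
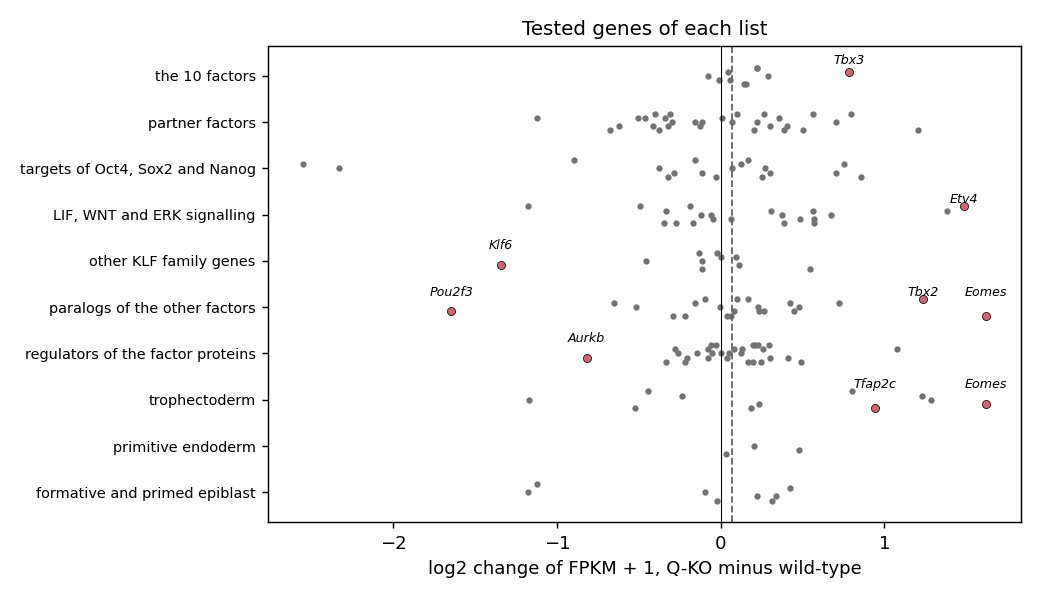
Log2 change of FPKM + 1, Q-KO minus wild-type, of the tested genes of the 10 factors and of each list; height within a row has no meaning and the dashed line is the median of all tested genes, 0.07. Red points passed the threshold and are named: Tbx3 among the factors, and Etv4, Klf6, Pou2f3, Tbx2 (which met the filter only through its Q-KO values), Eomes, Aurkb and Tfap2c among the lists.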

How the data were processed

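The authors deposited 1 table with an FPKM value for each gene in each library. The submitters' processing notes name build mm9, Cufflinks, STAR 2.5, bcl2fastq 2.16 and CASAVA, without role or order. Annotation, strand setting and number of reads were not given in the sources used here. Absolute depth is therefore unknown, and no counting interval was computed. FPKM sums were 525134 to 641715 per library. A stray header row (1) was dropped, and 24043 genes remained.

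Values were tested as log2(FPKM + 1), which understates changes of low genes, for the 11573 genes whose mean reached 1 FPKM, with limma 3.58.1 in R 4.3.3 (eBayes with intensity trend, two-sided, Benjamini-Hochberg). The test was run on simulated data with known changes and independent normal noise. No simulated library stood apart, so that run does not bear on how the calls depend on single libraries. Groups came from sample titles. Deviations of same-numbered libraries from their group means correlated at -0.03, 0.01 and 0.02 over genes, so replicate numbers were not used for pairing. Alternatives were no filter, a minimum mean of 5 FPKM, a pseudocount of 0.1, 2 scalings, 2 variance models, a replicate block, a term for Y-linked transcripts and leaving out each library.

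The factors and lists were chosen with earlier results of these data known. The text names the factors, the G1 cyclins, up to 4 called genes per list with the largest change or the most abundant tested gene where none was called, and the nearest profile of each factor; other genes are said to be named after their values were seen. Promoters came from RefSeq (GRCm38.p6), and chromosome names from the same assembly. Protein sequences were not used here.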

Additional observations from a re-analysis of the deposited data

How the results depend on the processing

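The count of factors past the threshold was 1 and went to 0 with no filter on low values, with median-of-ratios scaling, with the replicate number as a block and with a Y-linked term (Tbx3 adjusted p = 0.0566, 0.0713, 0.0694 and 0.110), and was 0 to 1 over the fits that left out 1 library. It was 1 with a pseudocount of 0.1, a mean of at least 5 FPKM, quantile normalization, no intensity trend and a robust fit (adjusted p 0.0267 to 0.0478). With 19581 genes tested in place of 11573, the fit with no filter adjusts over more genes; for the other losses the cause was not tested. None of the other 9 factors passed under any of the 15 alternatives. Their sign turned without a call for Sox2 with the Y-linked term (0.049), for Klf2 with median-of-ratios scaling (-0.073) and the Y-linked term (-0.19), for Klf5 with median-of-ratios scaling (-0.082) and for Prdm14 with the Y-linked term (0.29). Over the fits that left out 1 library the log2 change spanned 0 for Klf2 (-0.030 to 0.18), Klf5 (-0.088 to 0.18), Prdm14 (-0.16 to 0.12) and Dppa5a (-0.054 to 0.49).

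The count over all genes was 470, against 266 with a mean of at least 5 FPKM (of 8131 tested), 894 with the Y-linked term and 28 to 566 over the fits that left out 1 library, of which those without wild-type replicate 1 (94) and Q-KO replicates 1, 2 and 3 (187, 28 and 85) moved it by over 1.5 times. Among the distinct genes of the lists it was 10, against 22 with the Y-linked term and 1 to 15 over those fits, with 3, 1 and 3 without wild-type replicate 1, Q-KO replicate 2 and Q-KO replicate 3. Higher genes made up 74.9% of all calls, and 55.7% and 54.0% with median-of-ratios scaling and quantile normalization. With the replicate number as a block 333 genes passed. The labels do not say that a number marks a shared culture, so the block is no evidence of a weaker effect. Depth is unknown, which leaves the counting error of each value unknown.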

Other observations

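Some genes beside the 10 factors in the same network differed far more among the wild-type libraries. The wild-type CV was over 50% for 10 of 30 partner factors and 6 of 18 tested targets of Oct4, Sox2 and Nanog, and for 0 of the 10 factors. The share of all tested genes over 50% was not computed. The lists were not matched to the factors by level, and the highest CV was that of Zscan4c, at a wild-type mean of 1.43 FPKM. The median ratio of the highest to the lowest library was 1.45 for the factors, 2.03 for the partner factors and 2.30 for the targets. It was 1.70 for all tested genes and 1.52 for those whose mean reached 20 FPKM. Of the wild-type libraries, replicate 3 was the highest or the lowest for 23 of 30 partner factors, 15 of 18 targets and 6 of the 10 factors, where 2 of the 3 libraries hold an extreme for any gene. The same share over all tested genes was not computed. Some genes belong to both lists. In others replicate 2 was the lowest: Utf1, a chromatin protein of pluripotent cells, had 30.1, 9.34 and 34.8 FPKM, and Lin28a, which blocks let-7 maturation, had 13.3, 2.42 and 19.4 FPKM. The examples here were chosen after their values were seen. Zfp42, the naive-state marker Rex1, had 76.6, 78.9 and 363 FPKM in the wild-type libraries, in the order of replicates 1 to 3. Dppa3, a maternal factor that protects DNA methylation in the zygote, was at 43.0, 113 and 273 FPKM. Otx2, which drives cells towards the formative epiblast, was at 3.24, 1.19 and 18.0 FPKM. Other genes were lowest there: Nr0b1, a partner of Oct4, was at 57.0, 73.6 and 18.6 FPKM, and Dppa2, an activator of early embryonic genes, at 29.9, 71.5 and 10.3 FPKM. The Q-KO libraries had 177, 75.4 and 74.7 FPKM for Zfp42, with Nr0b1 at 32.6, 35.3 and 34.7 FPKM and Dppa2 at 72.3, 62.5 and 65.9 FPKM. The Y-linked transcripts and the higher genes of chromosomes 8 and 11 are in the same library, and their part in these values was not tested.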
